A study of Mus musculus with 6 samples.

Results

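The EGR, NR4A and IER immediate early genes were described in vascular endothelial cells (VECs) sorted from the developing mouse retina, with and without the circadian clock gene Bmal1. The set was chosen by name, with earlier results of these data known, and held 10 of the 55487 genes in the table. These were the zinc finger factors Egr1, Egr2 and Egr3 and the orphan nuclear receptors Nr4a1, Nr4a2 and Nr4a3. The others were the immediate early response genes Ier2, Ier3 and Ier5, and the phosphatase gene Dusp1. Poly(A) RNA of 6 libraries was measured. In 3 Bmal1;CKO libraries, pups carried floxed Bmal1 alleles (Bmal1 FL/FL) together with tdTomato FL/+ and Pdgf-icreER, a tamoxifen-inducible Cre transgene that is expressed in endothelial cells. The 3 control libraries came from tdTomato FL/+;Pdgf-icreER pups, so both groups carried the Cre transgene and the tdTomato reporter. Mice were on a C57BL/6J background. All pups received tamoxifen from postnatal day 0.5 (P0.5) to P2.5, and retinas were collected at noon on P7.5. Retinas were digested with collagenase and DNase, dead cells were gated out, and cells positive for both GFP and tdTomato were collected. The study compared the genotypes to ask how the transcripts of VECs change when Bmal1 is lost. The sample descriptions do not say whether a library came from 1 animal or from several. The methods of the study list as many animals as libraries for each genotype and call the libraries biological replicates. Pooling of animals is not mentioned there. The p-values measure the spread between these libraries.

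Immediate early genes are transcribed within minutes of a stimulus without new protein synthesis, because the factors that switch them on, such as SRF with its ternary complex partners and CREB, are already present and are activated by kinases such as ERK. EGR proteins bind GC-rich sites and are held back by the corepressors NAB1 and NAB2, whereas NR4A proteins are nuclear receptors that act without a known physiological ligand. DUSP1 dephosphorylates MAP kinases and so limits the signal that induced it, and in endothelial cells EGR1 and NR4A1 are known as genes induced by growth factors such as VEGF. Dissociation of a tissue into single cells is also known to induce immediate early genes.

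Each library held 71145068 to 104017800 reads on genes, and values are given as normalized counts, that is, reads divided by the size factor of the library. Libraries 1 to 3 were control and libraries 4 to 6 were Bmal1;CKO. Genes with a read numbered 21598, 23889 and 26420 in control libraries 1, 2 and 3, so control library 1 had the fewest. In Bmal1;CKO libraries 4, 5 and 6 they numbered 22142, 27904 and 26793. Arntl, the symbol of Bmal1 in the table, had 1700.4, 3489 and 2928 normalized counts in the control libraries and 1779, 2747 and 2415 in the Bmal1;CKO libraries, and the groups overlapped. Its log2 fold change was -0.19 (95% CI -1.01 to 0.64, adjusted p = 0.924, limma-trend). This count covers the whole gene and not the floxed exons alone, so it does not check the genotypes. The 14 endothelial markers, among them Pecam1, Cdh5 and Cldn5, were above 0 in every library, and their summed level was 194105 to 385481 in control and 119787 to 250530.3 in Bmal1;CKO. The 9 microglia and macrophage markers were also above 0 in every library and their sum was larger, at 1425457 to 4231905 in control and 2090456 to 4158673 in Bmal1;CKO. RNA of microglia or macrophages was thus measured along with that of VECs, and in such bulk samples more cells of a type and more RNA per cell cannot be told apart.

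The 10 genes together took 0.381%, 0.249% and 0.206% of the reads on genes in control libraries 1, 2 and 3. In Bmal1;CKO libraries 4, 5 and 6 they took 0.509%, 0.579% and 0.452%, and every Bmal1;CKO library was above every control library. Levels between genes are compared as normalized counts per kb of exon. On that scale Ier2 was the highest of the 10 in both groups, with means (± SD, n = 3) of 61746 ± 41919.8 for control and 116006 ± 43052 for Bmal1;CKO. Ier3, Dusp1, Ier5 and Egr1 followed between 8919.9 and 23659 in control. The control libraries of Ier2, Ier3, Dusp1, Ier5 and Egr1 overlapped from each neighbour in this order to the next, although Ier2 was above Ier3, Ier3 above Dusp1 and Dusp1 above Ier5 within each of the 3 control libraries. Egr2, at 1219.7 ± 130.1 (SD, n = 3), and Nr4a1, at 686 ± 73.7 (SD, n = 3), formed a middle tier in control whose libraries overlapped neither with each other nor with those of Egr1 above and Nr4a2 below. Nr4a2, Egr3 and Nr4a3 were lowest, with control means of 122, 24.6 and 4.85. In Bmal1;CKO the order was the same, except that Egr1, at 20522 ± 2849 (SD, n = 3), stood above Ier5, at 12401 ± 1889 (SD, n = 3), in all 3 libraries. Egr2 and Nr4a1, which were separate in control, overlapped in Bmal1;CKO.

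**Figure D1:**
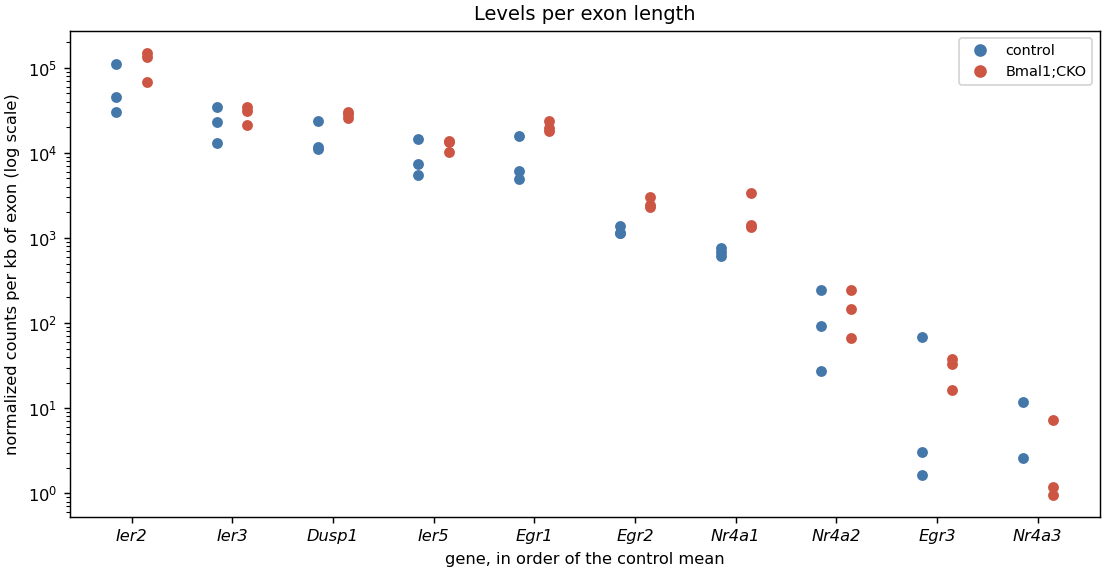
Normalized counts per kb of exon (log scale) of the 10 genes in order of their control mean, with a point for each control (blue) and Bmal1;CKO (red) library; Nr4a3 in control library 2 was at 0 and is not drawn. Ier2, at control and Bmal1;CKO means of 61746 and 116006, is at the top, and Nr4a3, at 4.85 and 3.12, is at the bottom.

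In the comparison of the genotypes, Egr1, Egr2, Nr4a1 and Dusp1 were higher in all 3 Bmal1;CKO libraries than in any control library, by 1.81 to 2.96 times in mean normalized count. The other 6 genes overlapped between the groups. No gene of the table passed a false discovery rate of 0.05 in the limma-trend fit over 20459 genes (0.0%), whereas 1007 (4.92%) had an unadjusted p under 0.05. On the recovered reads, edgeR and limma-voom also called 0 genes, and DESeq2 called 67 (0.327%). With DESeq2's normal prior, an alternative added after seeing the data, 34 genes (0.166%) were called. Of the 10 genes, 4 had an unadjusted p under 0.05 and all 4 were higher in Bmal1;CKO, against 3.17% of all genes tested. The 10 genes were chosen with earlier results of these data known, so setting them against all genes carries no test. The count of 4 was 2 without control library 3 (7.12% of all genes tested then) and 2 without Bmal1;CKO library 4 (0.897%). It was 6 without control library 1 (4.87%), and 1 with libraries scaled to microglia and macrophage markers (0.987%). Groups without overlap and higher in Bmal1;CKO were found for 4 of the 10 and for 6.62% of all genes (11.2% in either direction). With 3 libraries against 3, the exact permutation test cannot go below 0.1, and it gave that value, two-sided, for these 4 genes.

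**Figure D2:**
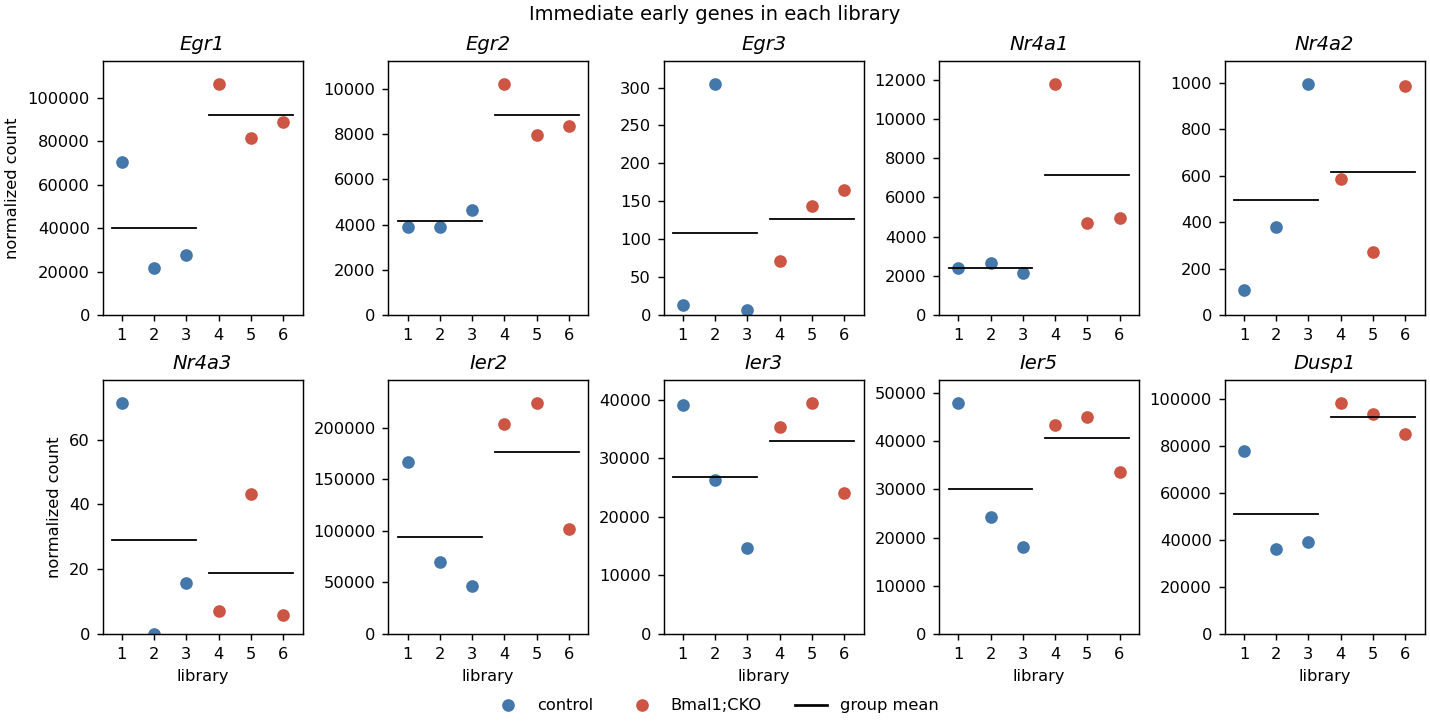
Normalized count of each gene in the 3 control (blue) and 3 Bmal1;CKO (red) libraries, with the group mean as a line; each panel has its own axis from 0. For Egr1, Egr2, Nr4a1 and Dusp1 every red point lies above every blue point, and control library 1 lies near or among the red points for Egr1, Ier2, Ier3, Ier5 and Dusp1.

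Egr1 (ENSMUSG00000038418, GRCm38 chromosome 18, 34859823 to 34864984, plus strand) encodes the best known EGR factor, which is induced in endothelial cells by VEGF and by shear stress. Its normalized count was 70396, 21870.4 and 27724 in control libraries 1, 2 and 3, and 106124, 81222 and 88711 in Bmal1;CKO libraries 4, 5 and 6. Control library 1 was far above the other control libraries and close to the lowest Bmal1;CKO library, but the groups did not overlap. Group means (± SD, n = 3) were 39997 ± 26488 for control and 92019 ± 12777 for Bmal1;CKO. Between the genotypes the log2 fold change was 1.39 (SE 0.45, 95% CI 0.34 to 2.43) at an unadjusted p of 0.0159 in limma-trend (adjusted p = 0.883). Without control library 1 the log2 fold change was 1.89 (limma-trend, adjusted p = 0.175), and the unadjusted p was above 0.05 when control library 2 (0.0559), control library 3 (0.0567) or Bmal1;CKO library 4 (0.0529) was left out.

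Egr2 (ENSMUSG00000037868, chromosome 10, 67535475 to 67542188, plus strand) encodes a factor best known for hindbrain and Schwann cell development and also made in stimulated immune cells. Normalized counts were 3889 in control library 1, 3889 in control library 2 and 4655 in control library 3. In Bmal1;CKO libraries 4, 5 and 6 they were 10195, 7938 and 8370.5. Unlike for Egr1, the 3 control libraries were close together, and all lay below the Bmal1;CKO libraries. Group means (± SD, n = 3) were 4144 ± 442 for control and 8834 ± 1198 for Bmal1;CKO. This was a log2 fold change of 1.09 (SE 0.23, 95% CI 0.55 to 1.63) at an unadjusted p of 0.00178 in limma-trend (adjusted p = 0.825), which ranked Egr2 at position 42 of all genes tested. Leaving out each library in turn gave log2 fold changes of 0.98 to 1.17, each with an unadjusted p under 0.01 by limma-trend. DESeq2's Wald test without shrinkage, on the recovered reads, called Egr2 at an adjusted p of 0.0166 (0.0333 with the normal prior). It called none of the other genes for which it gave an adjusted p. DESeq2 gave no p-value for Egr3, and no adjusted p for Nr4a3 with the normal prior.

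Egr3 (ENSMUSG00000033730, chromosome 14, 70077203 to 70082614, plus strand), a factor known from muscle spindles, neurons and lymphocytes, was far lower. Its normalized count was 13.5, 304 and 7.15 in control libraries 1, 2 and 3, and 71.7, 144 and 166 in Bmal1;CKO libraries 4, 5 and 6. A single control library, library 2, was above all Bmal1;CKO libraries and the other control libraries were below them, so the groups overlapped. The log2 fold change was 1.87 (SE 1.44, 95% CI -1.49 to 5.23, adjusted p = 0.883, limma-trend), while the mean counts, 108 ± 169.8 and 127 ± 49.2 (SD, n = 3), stood at a ratio of 1.17. The log2 fold change was 3.47 without control library 2 (limma-trend, unadjusted p = 0.0140), 0.86 without control library 3 and 0.25 by edgeR with TMM scaling, so its size rested on single libraries.

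The sequences before the transcription starts of Egr2, Nr4a1 and Dusp1 are shown because these are the genes with separate groups among those scanned. Windows from RefSeq's table of promoters (GRCm38.p6) were scanned for 7 of the 10 genes (11 windows). No window of Egr1, Egr3 or Ier2 was scanned, so motifs before their starts were not tested. Capitals mark matches, on either strand, to 7 motifs, which were the cyclic AMP response element (CRE, TGACGTCA), its core TGACG, which each CRE also contains, the CArG box bound by SRF, the E-box CACGTG bound by BMAL1 with CLOCK, the EGR site GCGNGGGCG, the NR4A site AAAGGTCA and the AP-1 site TGANTCA. Each line holds the 250 bases before a start, 5′ to 3′ on the strand of the gene. The windows are chr10:67535249-67535498 and chr10:67537619-67537868 (plus strand) for the upstream and the downstream start of Egr2, chr15:101266596-101266845 (plus strand) for Nr4a1 and chr17:26508473-26508722 (minus strand) for Dusp1.
Egr2, upstream start: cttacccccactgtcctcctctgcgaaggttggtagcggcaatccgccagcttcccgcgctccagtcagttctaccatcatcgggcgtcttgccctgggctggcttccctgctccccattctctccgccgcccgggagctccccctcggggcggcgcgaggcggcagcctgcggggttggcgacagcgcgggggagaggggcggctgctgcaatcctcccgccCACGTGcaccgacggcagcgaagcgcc
Egr2, downstream start: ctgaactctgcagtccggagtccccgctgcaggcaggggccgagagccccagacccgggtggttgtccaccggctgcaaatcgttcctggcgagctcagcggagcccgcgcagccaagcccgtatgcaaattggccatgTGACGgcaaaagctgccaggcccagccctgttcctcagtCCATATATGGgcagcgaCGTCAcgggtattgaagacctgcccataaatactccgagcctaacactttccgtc
Nr4a1: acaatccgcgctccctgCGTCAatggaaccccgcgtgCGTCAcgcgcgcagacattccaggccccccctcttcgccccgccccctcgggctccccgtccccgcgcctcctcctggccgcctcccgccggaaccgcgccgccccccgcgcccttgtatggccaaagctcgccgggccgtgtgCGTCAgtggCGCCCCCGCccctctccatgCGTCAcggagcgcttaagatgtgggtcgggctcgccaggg
Dusp1: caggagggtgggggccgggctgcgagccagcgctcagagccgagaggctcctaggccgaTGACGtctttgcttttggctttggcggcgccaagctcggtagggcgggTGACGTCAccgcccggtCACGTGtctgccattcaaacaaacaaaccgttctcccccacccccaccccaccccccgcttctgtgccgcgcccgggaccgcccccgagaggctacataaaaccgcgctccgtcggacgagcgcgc
In windows of 300 bases, from 250 before to 50 after the start, Egr2 was the only 1 of the 7 genes with a CArG box, CCATATATGG, whose first base lay 72 bases before the downstream start, and 1.63% of all 32851 windows held this motif. Another Egr2 window, chr10:67537316-67537565, held a CArG box, CCTTTTTTGG, at the same distance from its own start. Dusp1 was the only 1 of the 7 with a full CRE, 143 bases before its start, against 1.79% of all windows. The core TGACG was in the windows of Dusp1, Egr2, Nr4a1, Nr4a2 and Nr4a3, against 20.8% of all windows, and Nr4a1 held it at 233, 213, 69 and 40 bases before the start. The EGR site was in the windows of Nr4a1, 60 bases before the start, and of Nr4a2, against 5.55% of all windows. The E-box was in those of Dusp1, 126 bases before the start, and Egr2, 27 bases before the upstream start, against 7.15% of all windows. The NR4A site (1.51% of all windows) and the AP-1 site (7.81%) were in none of the 11 windows. Most Egr2 windows overlap each other, and a match is a string of letters, not a measured binding site.

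Nr4a1 (ENSMUSG00000023034, chromosome 15, 101254269 to 101274795, plus strand) encodes the receptor NUR77, which is induced by VEGF in endothelial cells and by antigen receptors in lymphocytes. Normalized counts were 2423, 2659.6 and 2143 in control libraries 1, 2 and 3. In Bmal1;CKO libraries 4, 5 and 6 it was 11764, 4683 and 4961. The control libraries were close together, as for Egr2, and Bmal1;CKO library 4 was far above the other Bmal1;CKO libraries. Group means (± SD, n = 3) were 2408 ± 259 for control and 7136 ± 4010.2 for Bmal1;CKO. This was a log2 fold change of 1.44 (SE 0.39, 95% CI 0.54 to 2.33) at an unadjusted p of 0.00643 in limma-trend (adjusted p = 0.883). Without Bmal1;CKO library 4 the log2 fold change was 1.01 (limma-trend, unadjusted p = 0.0116, adjusted p = 0.978), and the unadjusted p stayed under 0.05 with any of the 6 libraries left out.

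Nr4a2 (ENSMUSG00000026826, chromosome 2, 57106830 to 57124003, minus strand), known for its part in the development of dopamine neurons, did not separate the groups. Its normalized count was 111, 379.5 and 994 in control libraries 1, 2 and 3, and 586, 272 and 988 in Bmal1;CKO libraries 4, 5 and 6. Control library 3 and Bmal1;CKO library 6 were nearly alike and higher than the rest. Between the genotypes the log2 fold change was 0.64 (SE 0.88, 95% CI -1.41 to 2.68, adjusted p = 0.902, limma-trend) and was -0.18 without control library 1, 1.39 without control library 3 and 0.20 without Bmal1;CKO library 6.

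Nr4a3 (ENSMUSG00000028341, chromosome 4, 48045153 to 48086447, plus strand), the third receptor of the family, was close to the limit of detection. It had 58, 0 and 22 reads in control libraries 1, 2 and 3 and 5, 50 and 7 reads in Bmal1;CKO libraries 4, 5 and 6. The 0 in control library 2 allows up to 3 reads, or 2.78 normalized counts, and covers counting error only. Control library 1 was the highest and control library 2 the lowest, so the groups overlapped. Mean normalized counts (± SD, n = 3) were 29.0 ± 37.5 for control and 18.7 ± 21.2 for Bmal1;CKO, whereas the log2 fold change had the other sign, at 0.33 (SE 1.79, 95% CI -3.82 to 4.48, adjusted p = 0.977, limma-trend). It was -0.62 by edgeR with TMM scaling and -1.38 without control library 2, so no direction can be given for Nr4a3.

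Ier2 (ENSMUSG00000053560, chromosome 8, 84661331 to 84662852, minus strand) encodes a small nuclear protein that is made within minutes of growth factor stimulation. Normalized counts were 166402, 69456 and 46074 in control libraries 1, 2 and 3, and 203575, 224262 and 101848 in Bmal1;CKO libraries 4, 5 and 6. Control library 1 lay above Bmal1;CKO library 6, and this pair alone made the groups overlap. Group means (± SD, n = 3) were 93977 ± 63802 for control and 176561 ± 65526 for Bmal1;CKO. The log2 fold change was 1.04 (SE 0.55, 95% CI -0.23 to 2.32, adjusted p = 0.883, limma-trend). The two-sided exact permutation p was 0.2. Without control library 1 the log2 fold change was 1.56 (limma-trend, unadjusted p = 0.00591), and without control library 3 it was 0.63.

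Ier3 (ENSMUSG00000003541, chromosome 17, 35821684 to 35822923, plus strand), which encodes a regulator of cell survival, differed least among the genes of high level. Its normalized count was 39224, 26286 and 14764 in control libraries 1, 2 and 3, and 35426, 39535 and 24152 in Bmal1;CKO libraries 4, 5 and 6. Control library 1 was close to the highest Bmal1;CKO library, and control library 2 lay above the lowest. On the log2 scale the fold change was 0.38 (SE 0.40, 95% CI -0.54 to 1.31, adjusted p = 0.886, limma-trend). It was 0.72 without control library 1 and 0.010 without control library 3.

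Ier5 (ENSMUSG00000056708, chromosome 1, 155096361 to 155099636, minus strand) encodes a partner of heat shock factor and of the phosphatase PP2A. Normalized counts were 47990.3, 24286 and 17985 in control libraries 1, 2 and 3, and 43310.5, 45017 and 33549 in Bmal1;CKO libraries 4, 5 and 6. Control library 1 was the highest of all 6 libraries, and control libraries 2 and 3 were the lowest. This was a log2 fold change of 0.55 (SE 0.39, 95% CI -0.35 to 1.45, adjusted p = 0.883, limma-trend). It was 0.95 without control library 1 (limma-trend, unadjusted p = 0.0110) and 0.24 without control library 3.

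Dusp1 (ENSMUSG00000024190, chromosome 17, 26505590 to 26562128, minus strand) was, with Egr1, among the genes of high level whose groups did not overlap. Its annotated span overlaps Ergic1 on the other strand, with which it shares 11 of 3311 exonic bases. The normalized count was 77974, 36336 and 38929 in control libraries 1, 2 and 3, and 98437, 93485 and 85283 in Bmal1;CKO libraries 4, 5 and 6. The Bmal1;CKO libraries were close together, whereas control library 1 lay nearer to them than to the other control libraries. Group means (± SD, n = 3) were 51079 ± 23327 for control and 92401 ± 6643 for Bmal1;CKO. The log2 fold change was 0.94 (SE 0.36, 95% CI 0.11 to 1.77) at an unadjusted p of 0.0306 in limma-trend (adjusted p = 0.883). Without control library 1 the log2 fold change was 1.29 (limma-trend, adjusted p = 0.447), and with any other library left out the unadjusted p was 0.0592 to 0.0974.

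**Figure D3:**
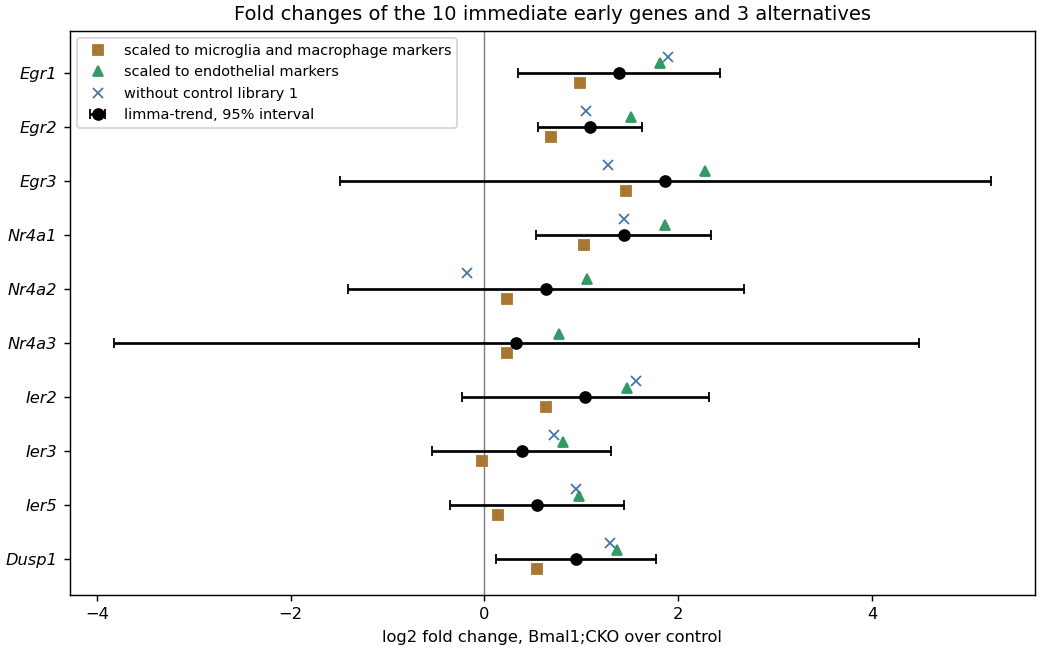
Log2 fold change of Bmal1;CKO over control for each gene by limma-trend with its 95% confidence interval (black), and the same without control library 1 (crosses), scaled to summed endothelial markers (triangles) or scaled to summed microglia and macrophage markers (squares). The intervals of Egr1, Egr2, Nr4a1 and Dusp1 lie above 0, and Nr4a3 has no cross because it did not pass the filter on low reads without control library 1.

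Among the 10 genes, all had a log2 fold change above 0 by limma-trend, against 56.6% of all genes tested, and the median was 0.99, against 0.11 over all genes tested. By edgeR with TMM scaling the median was 0.65, against -0.031 over all genes tested, and Nr4a3 was below 0. The highest library was Bmal1;CKO library 4 for 4 genes, Bmal1;CKO library 5 for 2, control library 1 for 2, control library 2 for 1 and control library 3 for 1. The lowest was control library 3 for 5 genes, control library 2 for 4 and control library 1 for 1, and no Bmal1;CKO library was the lowest for any gene. Averaged over the 10 genes, the log2 level relative to the mean of each gene was -0.076, -0.62 and -0.75 in control libraries 1, 2 and 3 and 0.54, 0.59 and 0.32 in Bmal1;CKO libraries 4, 5 and 6. Control library 1 therefore lay between the other control libraries and the Bmal1;CKO libraries. Dusp1 followed this mean most closely, with a root mean square difference of 0.17 on the log2 scale, and Nr4a3, at 1.90, and Egr3, at 1.78, followed it least.

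Ratios between family members within a library do not depend on how libraries are scaled, and 7 of them were compared. The log2 ratio of Egr1 to Egr2 was 4.18, 2.49 and 2.57 in control libraries 1, 2 and 3 and 3.38, 3.35 and 3.41 in Bmal1;CKO libraries 4, 5 and 6. The Bmal1;CKO values of this ratio differed by less than 0.1, and the control values lay on both sides of them. Mean log2 ratios (± SD, n = 3) of Ier3 to Ier2 were -1.71 ± 0.35 for control and -2.37 ± 0.25 for Bmal1;CKO, and those of Ier5 to Ier2 were -1.56 ± 0.22 and -2.05 ± 0.39. Both differences, -0.66 and -0.49, had a two-sided exact permutation p of 0.2 (0.7 after Benjamini-Hochberg adjustment over the 7 ratios). The groups overlapped for every ratio, so unequal change within a family was not detectable with 3 libraries against 3.

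The marker sums moved with these levels in part. The sum of microglia and macrophage markers was 4231905, 1425457 and 1746331 in control libraries 1, 2 and 3 and 4158673, 2820193 and 2090456 in Bmal1;CKO libraries 4, 5 and 6, so control library 1 was high and control libraries 2 and 3 were low, as for Egr1, Ier2, Ier5 and Dusp1. All 9 of these markers had a log2 fold change above 0, with a median of 0.41, while none had an unadjusted p under 0.05 in limma-trend and none separated the groups. The 14 endothelial markers all had a log2 fold change below 0, with a median of -0.50 and, again, none at an unadjusted p under 0.05. Counts of microglia and macrophage markers were 6.77 to 11 times those of endothelial markers in control and 8.34 to 23.5 times in Bmal1;CKO. Müller glia markers summed to 4013114 to 16619051 in control and 7344999.5 to 13522511 in Bmal1;CKO. Apoe alone made up 3972116 to 16583753 in control and 7307983 to 13472923 in Bmal1;CKO, so this sum does not describe the other Müller glia markers. Pericyte markers summed to 42334 in control library 3 and 2626 to 6921 in the other libraries. Of 8 rod markers, 7 had a log2 fold change below 0, and Cnga1, a channel subunit of rods, was lower without overlap (-1.37, adjusted p = 0.883, limma-trend). Cnga1 was the only 1 of the 8 without overlap, against 11.2% of all genes tested in either direction. The part of any of these cells in the levels of the 10 genes was not tested.

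Set against the marker sums, the genes behaved differently. Per 1000 counts of microglia and macrophage markers, Egr1 had 16.6, 15.3 and 15.9 counts in control libraries 1, 2 and 3 and 25.5, 28.8 and 42.4 in Bmal1;CKO libraries 4, 5 and 6. On this scale the control libraries of Egr1 were nearly equal, control library 1 included, and the groups did not overlap. Egr1 was the only 1 of the 10 genes whose groups stayed apart on it, where 1.59% of all genes tested were higher without overlap. Egr2 had 0.919, 2.73 and 2.67 counts per 1000 in control libraries and 2.45, 2.81 and 4.00 in Bmal1;CKO libraries. Nr4a1 had 0.572, 1.87 and 1.23, and 2.83, 1.66 and 2.37. Egr2 and Nr4a1 thus overlapped between the groups on this scale, with control library 1 the lowest. Dusp1 had 18.4, 25.5 and 22.3 counts per 1000 in control and 23.7, 33.1 and 40.8 in Bmal1;CKO, and overlapped by a small margin. Per 1000 counts of endothelial markers, 5 genes were higher without overlap (Egr1, Egr2, Nr4a1, Ier5 and Dusp1), against 6.77% of all genes tested.

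With libraries scaled to microglia and macrophage markers, 1 of the 10 genes, Egr1, had an unadjusted p under 0.05 by limma-trend (log2 fold change 0.98, unadjusted p = 0.0259, adjusted p = 0.994). The log2 fold change was then 0.68 for Egr2 (adjusted p = 0.994), 1.03 for Nr4a1 (adjusted p = 0.994) and 0.54 for Dusp1 (adjusted p = 0.994), and that of Ier3 was -0.022. This scaling moved the median of all genes tested from 0.11 to -0.30, and scaling to endothelial markers moved it to 0.52, with 34% and 79.2% of all genes above 0 in place of 56.6%. Scaling divides all genes of a library by the same factor, so it shifts all log2 fold changes nearly alike. The place of a gene relative to the median of all genes therefore could not change, and it carries no test. Neither scaling assigns reads to cells, and which cells the reads of the 10 genes came from was not tested.

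**Figure D4:**
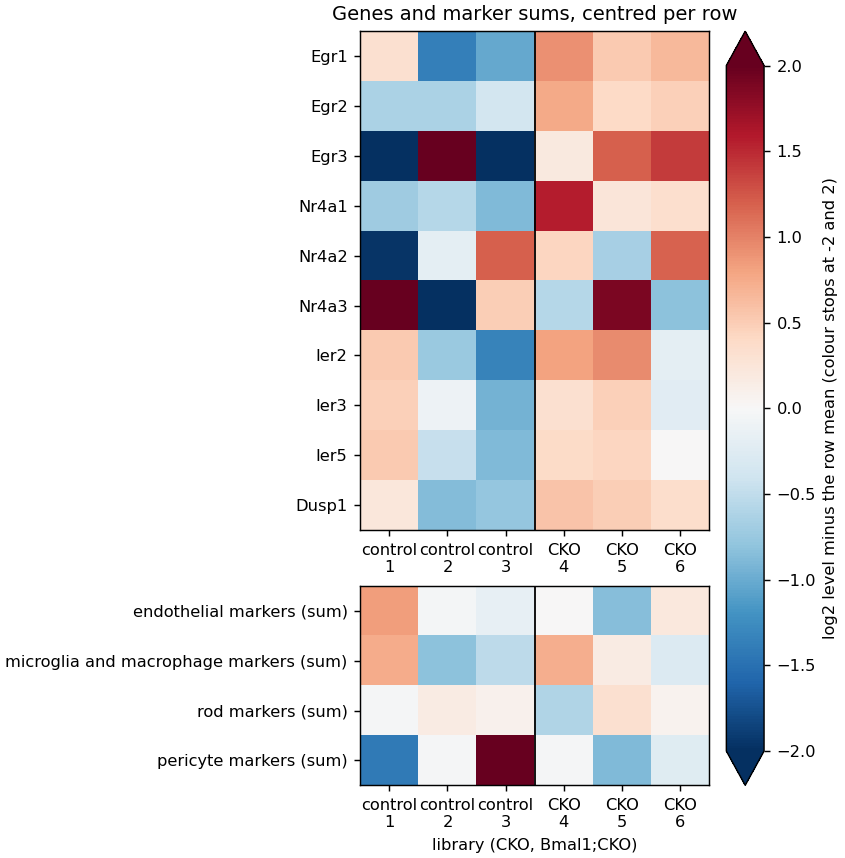
Log2 normalized count of each gene (top) and log2 summed markers of 4 cell types (bottom) relative to the mean of each row, with libraries as columns and a line between control and Bmal1;CKO; the colour stops at -2 and 2. Egr1, Ier2, Ier5 and Dusp1 share with the microglia and macrophage row a control library 1 above control libraries 2 and 3, whereas Egr2 and Nr4a1 are low in all 3 control libraries.

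Other immediate early genes were taken from 3 lists, also chosen with earlier results of these data known, and 41 of their 42 genes were tested. Of these, 30 had a log2 fold change above 0 and 11 below, with a median of 0.51, and 6 had an unadjusted p under 0.05, all higher in Bmal1;CKO. Over all genes tested, 56.6% were above 0 and 3.17% were higher at an unadjusted p under 0.05. Of 7 tested AP-1 and ATF genes, whose products dimerise at AP-1 sites, 6 were above 0, with a median of 1.05 that was 0.45 without control library 3 and 0.59 by edgeR with TMM scaling. Fos had 154759, 59463 and 60585 normalized counts in control libraries 1, 2 and 3 and 220476, 201329 and 144026 in Bmal1;CKO libraries 4, 5 and 6. Control library 1 of Fos was above Bmal1;CKO library 6, as for Ier2, and the log2 fold change was 1.17 (SE 0.46, unadjusted p = 0.0340, adjusted p = 0.883, limma-trend). Jun had 135546, 55393 and 65014 in control and 151246, 233568 and 138620.3 in Bmal1;CKO, without overlap. Its log2 fold change was 1.11 (SE 0.43, unadjusted p = 0.0353, adjusted p = 0.883, limma-trend). Among 13 other transcription factors, 9 were above 0, and Klf6, a zinc finger factor induced by vascular injury, was 1.03 higher (SE 0.36, adjusted p = 0.883, limma-trend) without overlap.

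Among 21 other immediate early regulators, 15 were above 0 and the median was 0.25. Ccn1, a secreted matrix protein induced by growth factors and YAP, had the smallest unadjusted p, with 5205, 7676 and 8981 normalized counts in control libraries and 36485, 18789 and 19219.7 in Bmal1;CKO libraries 4, 5 and 6. Ccn1 was high in Bmal1;CKO library 4 and low in all 3 control libraries, as was Nr4a1, and its log2 fold change was 1.73 (SE 0.35, unadjusted p = 0.00127, adjusted p = 0.700, limma-trend). Ppp1r15a, a subunit of the phosphatase that reverses the stress block on translation, was 1.12 higher on the log2 scale (SE 0.36, adjusted p = 0.883, limma-trend). Arc, a neuronal gene whose transcription depends on SRF, had few counts, at 0, 28.8 and 12.9 in control and 212, 111 and 208 in Bmal1;CKO. Its groups did not overlap, and its log2 fold change was 4.52 (SE 1.41, adjusted p = 0.883, limma-trend). Sik1, a kinase gene induced by CREB, was lower without overlap, at 555, 422 and 536 in control and 209.6, 201 and 297 in Bmal1;CKO. Its log2 fold change was -1.10 (SE 0.50, adjusted p = 0.883, limma-trend). Of the 41 genes, 5 were higher and 1, Sik1, was lower without overlap. Over all 20459 genes tested, 1354 were higher and 929 lower without overlap (11.2% in either direction). The count of 6 in the 3 lists, against 4.92% of all genes tested, was 21 without control library 1 (8.63% of all genes tested then), 2 without control library 2 (4.52%) and 2 without Bmal1;CKO library 5 (1.64%). It was 1 when libraries were scaled to microglia and macrophage markers (2.12%) and 11 when they were scaled to endothelial markers (3.53%).

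**Figure D5:**
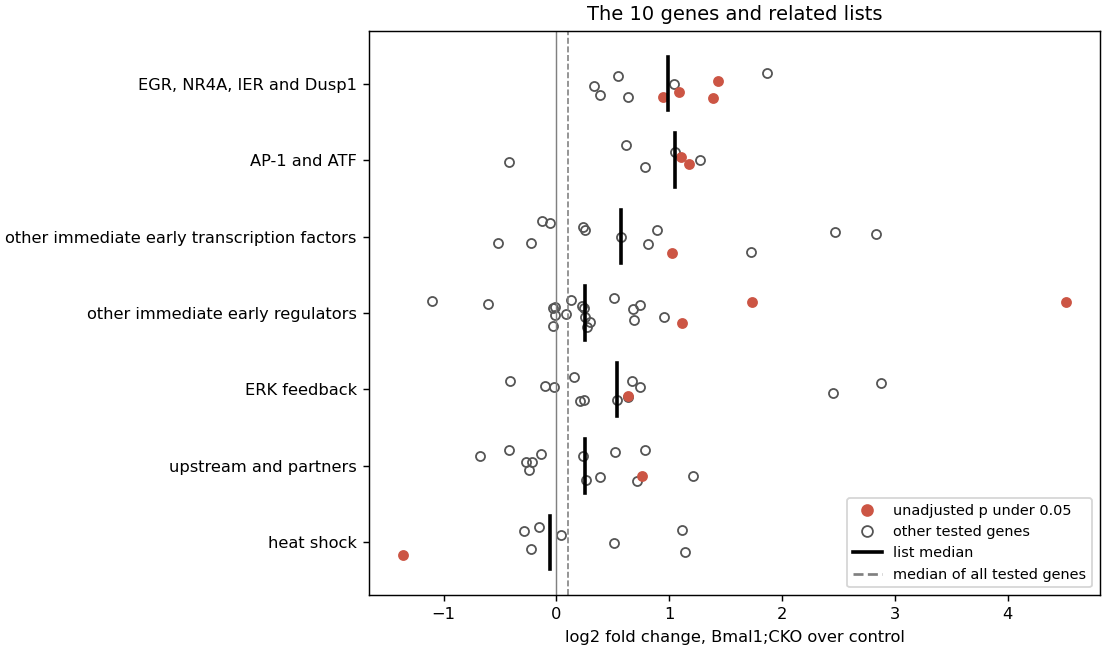
Log2 fold change of Bmal1;CKO over control (limma-trend) of each tested gene in 7 lists, with the list median (bar), the median of all genes tested (dashed line, 0.11) and genes with an unadjusted p under 0.05 filled. The medians of the 10 genes (0.99) and of the AP-1 and ATF genes (1.05) lie farthest to the right, although the latter is 0.45 without control library 3, and that of heat shock genes (-0.055) lies near 0.

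Dusp1 acts in the negative feedback on MAP kinases, and 13 other genes of that feedback were tested. Of these, 10 had a log2 fold change above 0 and 3 below, with a median of 0.54 that was 0.048 without control library 1 and 0.18 by edgeR with TMM scaling, and Dusp5, an ERK phosphatase of the nucleus, had an unadjusted p under 0.05. Dusp5 was the only 1 of the 13 at that p, against 4.92% of all genes tested. Dusp5 had 2226, 2749.6 and 2175 normalized counts in control libraries and 3559.7, 3765 and 3706 in Bmal1;CKO libraries, without overlap. It was also the only 1 of the 13 without overlap, against 11.2% of all genes tested in either direction. Its Bmal1;CKO libraries were nearly equal, and its log2 fold change was 0.63 (SE 0.24, unadjusted p = 0.0333, adjusted p = 0.883, limma-trend). Dusp6, the cytoplasmic ERK phosphatase, had a log2 fold change of 0.15 (SE 0.29, adjusted p = 0.923, limma-trend), and its groups overlapped.

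Of 14 inducers and partners of these genes, 8 had a log2 fold change above 0 and 6 below, with a median of 0.25. The EGR corepressors separated the groups in opposite directions. Nab2, itself induced by EGR1, had 2139.7, 941 and 2214 normalized counts in control libraries and 2952, 2497 and 2694 in Bmal1;CKO libraries, with a log2 fold change of 0.72 (SE 0.39, adjusted p = 0.883, limma-trend). Nab1 had 2749, 2364 and 5000.1 in control and 1648, 2227 and 2155 in Bmal1;CKO, with a log2 fold change of -0.68 (SE 0.35, adjusted p = 0.883, limma-trend). Neither Nab2 nor Nab1 had an unadjusted p under 0.05. Among the retinoid X receptors, with which NR4A1 and NR4A2 form dimers, Rxrg was higher without overlap, at 1558, 956 and 1477 in control and 2169, 2408 and 2039 in Bmal1;CKO. Its log2 fold change was 0.76 (SE 0.31, unadjusted p = 0.0432, adjusted p = 0.883, limma-trend), while Rxra and Rxrb had log2 fold changes of -0.25 and 0.27 and overlapped between the groups. Rxrg was the only 1 of the 14 with an unadjusted p under 0.05, against 4.92% of all genes tested. Nab1, Nab2 and Rxrg alone of the 14 had separate groups, against 11.2% of all genes tested in either direction. Srf had a log2 fold change of 0.52 (SE 0.30, adjusted p = 0.883, limma-trend).

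Heat shock genes are also known to respond to handling of cells. Of 8 tested, 4 were above 0 and 4 below, and their summed level was 24737 to 35902 in control and 23851 to 35652 in Bmal1;CKO. Hspa8, a constitutive chaperone, was lower without overlap, at 7352, 4554 and 4945 in control libraries and 2189.9, 2902 and 1531 in Bmal1;CKO libraries. Its log2 fold change was -1.36 (SE 0.33, unadjusted p = 0.00392, adjusted p = 0.856, limma-trend). Hspa8 was the only 1 of the 8 without overlap, against 11.2% of all genes tested in either direction. The 4 genes above 0 were Hspa1a (1.14), Hspa1b (1.12), Dnajb1 (0.51) and Hsph1 (0.043). The groups of these 4 genes overlapped. Whether the digestion and sorting contributed to the levels of the 10 genes was not tested.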

How the data were processed

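Read processing by the authors used FastQC, Trimmomatic, Bowtie with the mouse build mm10 (GRCm38), featureCounts and DESeq2. Libraries had been amplified from sorted cells. Whether the counting used strand is not given in the sources used here. The deposited values are a signal, in which gene counts were scaled by DESeq2 size factors. Dividing each column by its smallest step recovered whole reads for 100% of the values (tolerance 0.02 reads), with size factors of 0.711 to 1.40. The deposited table also holds the authors' fold changes, their errors and p-values, which were not used. Its columns name the genotype, but their numbers do not match those of the sample descriptions, so columns stand for replicates of a genotype and not for named samples.

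The 20459 genes that reached 10 reads in 3 or more libraries were fitted with limma-trend (R 4.3.3, limma 3.58.1) on log2(normalized count + 1), with no covariate beside genotype, and p-values were adjusted by Benjamini-Hochberg over all of them. Fold changes are on that scale, and for low genes they can lie far from those of a count model. Egr3 was 1.87, against 0.25 by edgeR with TMM scaling, and Nr4a3 was 0.33, against -0.62. Single values were compared with two-sided exact permutation tests (10 possible splits into 3 and 3 libraries). Alternatives were edgeR's quasi-likelihood test (4.0.16), limma-voom and DESeq2 (1.42.0) on the recovered reads, limma without the trend, TMM-scaled log2 CPM with a prior count of 2, pseudocounts of 0.5 and 10, other filters, scaling to markers and leaving out each library. DESeq2 with a normal prior was added after seeing the data. The fit was run on simulated counts with large changes and the same dispersion for all genes, as a check of the code. This does not show how the fit behaves at the spread of these libraries. Gene coordinates and exon lengths are from a GENCODE annotation of GRCm38, and promoters are from RefSeq. Named are the 10 genes, Arntl, genes of the lists with an unadjusted p under 0.05, and the 5 genes of most similar profile. Sik1, Nab1, Nab2, Dusp6, Srf, Rxra, Rxrb, Apoe, Hspa1a, Hspa1b, Dnajb1 and Hsph1 were named after their values were seen. Pecam1, Cdh5 and Cldn5 were named as examples of endothelial markers. The 10 genes and the lists were chosen with earlier results of these data known. Figures were drawn with Python 3.11.15 and matplotlib 3.10.9.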

Additional observations from a re-analysis of the deposited data

How the results depend on the processing

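None of the 10 genes passed a false discovery rate of 0.05 in limma-trend (4 at an unadjusted p under 0.05), whereas DESeq2 called 1, Egr2, without shrinkage (log2 fold change 1.09) and 1, again Egr2, with a normal prior (0.98). The count of 4 was 1 with libraries scaled to microglia and macrophage markers and 2 to 6 with a library left out, being 2 without control library 3 or Bmal1;CKO library 4. The count of 6 other immediate early genes was 11 when scaled to endothelial and 1 when scaled to microglia and macrophage markers, and 2 to 21 with a library left out. The cause was not tested. The log2 fold change of Arntl was 0.24 when scaled to endothelial markers and -0.49 to 0.029 (without control library 2) with a library left out. With a library left out, the log2 ratio difference was -2.89 to 0.27 for Nr4a3/Nr4a1, -0.32 to 2.43 for Egr3/Egr2, -1.63 to 0.039 for Nr4a2/Nr4a1 and -0.40 to 0.16 for Dusp1/Ier2. Nr4a3 was -0.62 by edgeR with either scaling, -0.63 by DESeq2, -0.076 with the prior, -0.18 with a pseudocount of 10 and -1.38 (without control library 2) to 0.82 with a library left out. Nr4a2 was -0.18 (without control library 1) to 1.39, and Ier3 was -0.022 when scaled to microglia and macrophage markers. The median of all genes tested was -0.031 by edgeR with TMM scaling, -0.029 with the DESeq2 size factors, -0.028 by DESeq2, -0.015 with the prior, -0.0057 with at least 10 reads in every library and -0.30 when scaled to microglia and macrophage markers. Under that scaling the medians of other immediate early regulators and of upstream genes and partners were both -0.15, and the latter was -0.050 (without control library 2) to 0.49 with a library left out. The heat shock median was 0.37 when scaled to endothelial markers, and -0.045 to 0.22 with a library left out. By edgeR with TMM scaling the median of the 41 other immediate early genes was 0.37, that of the other immediate early transcription factors 0.24 and that of the other immediate early regulators 0.15. The log2 fold changes of Egr1, Egr2, Egr3, Nr4a1, Ier2, Ier5 and Dusp1 stayed above 0 under all alternatives run. No paired analysis was possible because the columns carry no replicate number shared between the groups. With 3 libraries a group, the interval of a single gene spans a log2 difference of about 1 or more, and Nr4a3, at 0 to 58 reads a library, is limited by depth as well.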

Other observations

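The genes outside the set whose levels over the 6 libraries were most like the mean of the 10 genes were Akna, Sox4, B3galt4, Arrdc1 and Tead3, among 15037 genes that had 10 or more reads in each library. Likeness was the root mean square difference of log2 levels relative to the mean of each gene, which was 0.133 for Akna, 0.134 for Sox4, 0.138 for B3galt4, 0.163 for Arrdc1 and 0.169 for Tead3, against a median of 0.728 over all genes compared. Akna had 10303, 5357 and 5992 normalized counts in control libraries 1, 2 and 3 and 12825, 14641 and 12711 in Bmal1;CKO libraries 4, 5 and 6. Sox4, a transcription factor of progenitor cells, had 64497, 47845 and 49947 in control and 106348, 99050.4 and 78951 in Bmal1;CKO. Akna and Sox4 shared with Dusp1 a control library 1 above the other control libraries and below all Bmal1;CKO libraries. Genes were chosen for this likeness, so it carries no test.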
